A study of Mus musculus with 15 samples.

Results

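Sycp1, Calhm4, Clec18a, Slc51a, Ceacam10, C1ql4, Dnah6 and Adgrd1 are 8 mouse genes that were chosen by measured values, because their messenger RNA was much lower in dorsal root ganglia of mice lacking the miR-183 cluster than in control ganglia. They are 8 of the 39179 gene identifiers counted, and all 8 were among the 16976 genes that passed a filter on low counts. All 8 were lower in knockout ganglia of uninjured (naive) animals, so the naive difference is taken as the one that chose them and is described below without a test. Whether libraries from injured animals also entered the choice is not known, so the tests after injury may not be independent of it. They were picked as genes nearly lost in the knockout. In naive knockout ganglia Sycp1 had no count, Calhm4, Clec18a and Slc51a kept 10.8 to 16.7% of their control level, and Dnah6, Ceacam10, C1ql4 and Adgrd1 kept 27.8 to 38.8%, which goes against the name. After nerve injury 3 of the 8 (Calhm4, Slc51a and Ceacam10) were called lower in knockout, against 0.377% of the tested genes. The other 5 (Sycp1, Clec18a, C1ql4, Dnah6 and Adgrd1) were not. The injured knockout mean was 87.8% of the control mean for Sycp1 and 123% for Adgrd1.

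The study asked how the miR-183 cluster sets mechanical pain sensitivity, and sequenced RNA of the lumbar 4 to 6 ganglia from 15 mice of 3 to 6 months, on a mixed background that was mostly C57bl6. The knockout mice were Wnt1-Cre; mirflox/flox. In them Cre driven by Wnt1 removes the floxed cluster in cells of the neural crest, the source of sensory neurons and ganglionic glia. It leaves the cluster in ganglion cells of other origin. The control mice were Wnt1-Cre alone or wild type (wt), with no floxed allele in their label. There were 4 knockout naive libraries (replicates 4, 5, 8 and 9), 5 control naive libraries (replicates 1, 2, 3 and 6 with Wnt1-Cre and replicate 7 wt), 3 knockout libraries after spared nerve injury (SNI; replicates 13, 19 and 21) and 3 control SNI libraries (replicate 15 with Wnt1-Cre, and 18 and 23 wt). SNI ties off and cuts the tibial and common peroneal nerves and spares the sural nerve. Each mouse gave 1 library. The animal numbers of injured knockout mice (948 to 956) and injured control mice (974 to 976) do not interleave, so genotype and any batch that follows those numbers cannot be told apart after injury. All injured mice (948 to 976) have lower numbers than all naive mice (1041 to 1082), so injury and any such batch cannot be told apart either.

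Libraries held 5252920 to 10822762 counts, so that 3 counts, the limit that a count of 0 allows by counting error alone, correspond to 0.273 to 0.647 CPM in a single library (CPM is the count relative to the library size, after TMM scaling of that size). Control SNI replicate 23 had the fewest counts, and 7.43% of them were mitochondrial, against 2.26 to 3.60% in the other 14 libraries. Its lowest rank correlation across genes with another injured control was 0.953. The summed level of 12 sensory neuron markers was 12320 to 13150 CPM in knockout naive and 11400 to 13210 CPM in control naive libraries, and 13680 to 13920 CPM in knockout SNI against 11480 to 13170 CPM in control SNI libraries. The precursor genes of the cluster were counted 0 (Mir183), 1 (Mir96) and 2 (Mir182) times over the 15 libraries, too few to check the deletion. In whole ganglia, fewer cells of a type and less RNA per cell cannot be told apart.

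MicroRNAs pair through their seed, bases 2 to 8, with sites in the 3′ untranslated region (UTR) of messenger RNAs and lower the level or translation of those messengers, so direct targets usually rise when a microRNA is removed. The miR-183 cluster is expressed in sensory organs and sensory neurons, and it makes the 3 mature microRNAs shown here because they are what the knockout removes. Sequences are from RefSeq on GRCm38.p6, 5′ to 3′, with the seed in capitals. miR-183-5p lies at chr6:30169711-30169732, miR-96-5p at chr6:30169506-30169528 and miR-182-5p at chr6:30165962-30165986, all on the minus strand.
miR-183-5p: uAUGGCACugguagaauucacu
miR-96-5p: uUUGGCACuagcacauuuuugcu
miR-182-5p: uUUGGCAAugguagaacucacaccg
The seeds of miR-183-5p and miR-96-5p differ at their first base, and those of miR-96-5p and miR-182-5p at their last. The longest annotated 3′ UTR of each of the 8 genes was searched for the reverse complement of each seed, which is GTGCCAT for miR-183-5p, and GTGCCAA for miR-96-5p, while that of miR-182-5p is TTGCCAA. None of the 8 genes, with UTRs of 136 (Dnah6) to 2722 bases (Calhm4), held such a 7-base site. Of 14466 tested genes with an annotated 3′ UTR, whose median length was 1361 bases, 29.4% held one. No match says only that these letters are not in these UTRs.

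The genes have unlike roles. Sycp1 is the transverse filament protein of the synaptonemal complex, which joins homologous chromosomes in meiosis. Calhm4 belongs to the CALHM family of large-pore channels, Slc51a is the alpha subunit of the organic solute transporter that exports bile acids and steroids, and Adgrd1 (GPR133) is an adhesion G protein-coupled receptor that raises cyclic AMP. Clec18a is a protein with a C-type lectin domain, Ceacam10 an immunoglobulin-domain protein of the carcinoembryonic antigen family, and C1ql4 a secreted C1q-like protein of a family that binds the adhesion receptor Adgrb3. Dnah6 is a heavy chain of the dynein motors of motile cilia. All are annotated as protein-coding, on 8 chromosomes of GRCm38. Sycp1 lies on chromosome 3 (102818499 to 102936100), Clec18a on 8 (111058920 to 111092426), Slc51a on 16 (32474504 to 32487879), C1ql4 on 15 (99084086 to 99087817) and Calhm4 on 10 (34038784 to 34044310), all on the minus strand. Ceacam10 lies on chromosome 7 (24777206 to 24784657) and Adgrd1 on 5 (129096750 to 129204599), on the plus strand. Dnah6 lies on the minus strand of chromosome 6 (73017606 to 73221651), the chromosome of the microRNA cluster.

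The promoter windows of Sycp1, Slc51a and Ceacam10 are shown because they share the E-box letters CACGTG. Each runs from 250 bases before to 50 bases after the start in RefSeq (GRCm38.p6), in the direction of the gene, with CACGTG in capitals. The window of Sycp1 is chr3:102936051-102936350 on the minus strand, that of Slc51a chr16:32487830-32488129 on the minus strand, and the first of the overlapping windows of Ceacam10 chr7:24776917-24777216 on the plus strand.
Sycp1: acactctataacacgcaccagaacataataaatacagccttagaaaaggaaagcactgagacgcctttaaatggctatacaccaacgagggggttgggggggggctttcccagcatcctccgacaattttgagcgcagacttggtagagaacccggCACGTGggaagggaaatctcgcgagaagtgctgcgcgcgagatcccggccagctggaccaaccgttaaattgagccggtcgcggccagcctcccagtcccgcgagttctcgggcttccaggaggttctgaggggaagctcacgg
Slc51a: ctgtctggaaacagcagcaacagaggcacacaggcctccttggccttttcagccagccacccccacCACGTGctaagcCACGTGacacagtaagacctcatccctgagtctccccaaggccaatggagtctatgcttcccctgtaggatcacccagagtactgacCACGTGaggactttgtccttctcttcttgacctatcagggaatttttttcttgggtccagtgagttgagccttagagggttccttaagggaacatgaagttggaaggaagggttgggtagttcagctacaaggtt
Ceacam10: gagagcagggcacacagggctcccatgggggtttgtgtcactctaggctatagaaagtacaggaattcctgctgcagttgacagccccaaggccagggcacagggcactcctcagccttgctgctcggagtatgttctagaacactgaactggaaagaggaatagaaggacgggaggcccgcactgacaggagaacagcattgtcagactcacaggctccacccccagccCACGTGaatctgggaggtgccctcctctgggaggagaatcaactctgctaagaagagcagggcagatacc
Slc51a held the letters 3 times, beginning at -184, -172 and -85 from the start, Sycp1 once at -94 and Ceacam10 once at -20. A window was at hand for 7 of the 8 genes, and 3 of these 7 held CACGTG, which reads the same on both strands, against 7.15% of all 32851 windows and 8.09% of 27025 genes. Of the other letters searched on both strands, TCCCGC was in Sycp1, Calhm4 and C1ql4 (22.0% of genes), TGTGGT in Calhm4 (18.9%) and TATAAA in Calhm4 (15.7%). TAATTA (6.12%) and GTTGCC (14.1%) were in none. A match is a description of the letters and not of a bound site.

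In naive ganglia every knockout library lay under every control library for all 8 genes, a separation that 4.75% of the tested genes showed. Between the genotypes 321 genes were called at an adjusted p under 0.05 (edgeR's quasi-likelihood test with Benjamini-Hochberg adjustment), of which 170, or 1.00% of those tested, were lower in knockout. Both shares are background to a contrast that chose the genes. The median log2 fold change of the 8 genes was -2.16, with Sycp1 at its bound or at its fitted value, against 0.00 over all tested genes. Adgrd1 had the smallest fall of the 8, and 50 tested genes, the other 7 among them, had a lower fitted value.

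Sycp1 had no count in the 4 knockout naive libraries, against 25, 25, 23, 28 and 37 counts in the 5 control naive libraries. This was the only one of the 8 without a count in a whole group. The control naive level was 2.69 ± 0.481 CPM (SD, n = 5), and 3 counts over the 4 knockout libraries together correspond to 0.0787 CPM, so the level was at least 34.2-fold lower in knockout. After injury the pattern did not follow genotype. The knockout SNI libraries had 0, 18 and 8 counts (0, 1.71 and 0.800 CPM), and the control SNI libraries 17, 0 and 5 counts (1.77, 0 and 1.08 CPM). One library of each injured group was thus at 0, the knockout replicate 13 with a limit of 0.379 CPM and the wt control replicate 18 with a limit of 0.310 CPM. The fitted difference between knockout and control after injury was -0.06 log2 (SE 0.91; adjusted p = 0.978). In all, Sycp1 was counted in 9 of 15 libraries. Reads for Sycp1 therefore appeared in 2 of 3 knockout animals after injury and in none of 4 naive ones. As the naive knockout values helped to choose the gene, that difference is given without a test. Sycp1 averaged 0.951 ± 0.893 CPM (n = 3) in control SNI and 2.69 ± 0.481 CPM (n = 5) in control naive libraries. This change was not called (log2 fold change -1.52, SE 0.73, adjusted p = 0.338). The control naive libraries also helped to choose the gene, so this p-value is not independent of the choice.

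**Figure D1:**
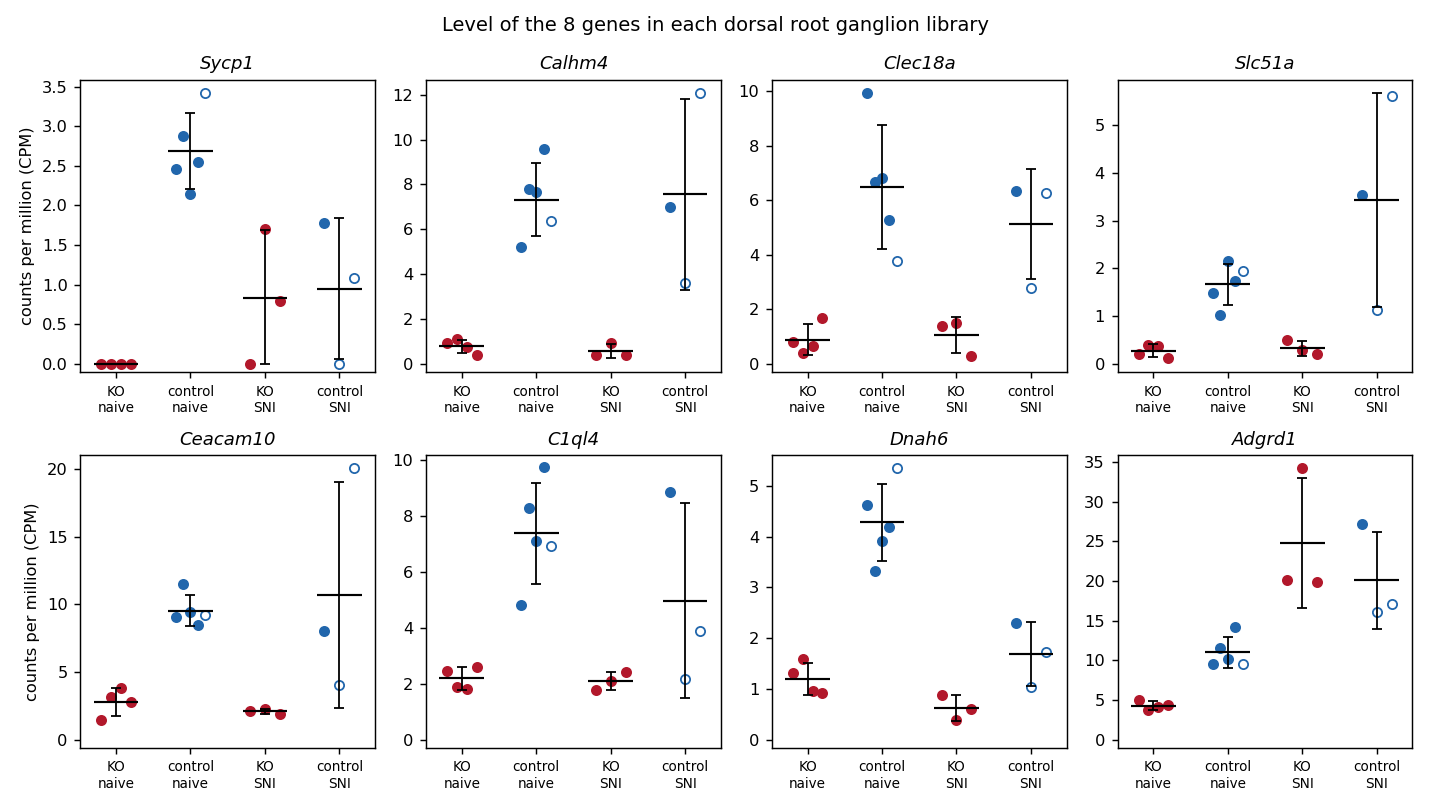
CPM of each gene in each library, knockout (KO, red) and control (blue) before and after spared nerve injury; open symbols are wt controls, bars the mean and whiskers the SD, cut at 0. All naive knockout libraries lie under all naive controls, whereas Sycp1, C1ql4 and Adgrd1 overlap between genotypes after SNI.

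Calhm4 was far lower in knockout ganglia both before and after injury. It had 0.915, 1.09, 0.760 and 0.392 CPM in the knockout naive libraries, against 5.22, 7.81, 7.66, 9.57 and 6.37 CPM in the control naive libraries. The knockout mean was 10.8% of the control mean, from 3 to 11 counts per knockout library and 53 to 105 per control library. After injury it had 0.379, 0.947 and 0.400 CPM in knockout and 6.99, 3.61 and 12.1 CPM in control libraries. No knockout library of either state was above 1.09 CPM and no control library was under 3.61 CPM. The injured difference was -3.58 log2 (SE 0.47, adjusted p = 0.00101). For this and the other genes, injured libraries may have entered the choice, so p-values of the injured difference may not be independent of it. No change of Calhm4 with injury was called (-0.44 log2, SE 0.57, adjusted p = 0.643 in knockout, and -0.02, SE 0.31, adjusted p = 0.981 in control). Calhm4 lies inside Trappc3l, a gene of the opposite strand that had 363 to 1085 counts per library. The strand setting of the counting is not given in the sources used here, so some reads of the pair may not be told apart. Trappc3l had 59.5 to 80.4 CPM in knockout naive and 84.8 to 101 CPM in control naive libraries, a difference of -0.42 log2 (SE 0.10, adjusted p = 0.0318), and one of -0.48 log2 (SE 0.12, adjusted p = 0.0664) after injury.

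Slc51a had the fewest counts of the set, 178 over all libraries. It had 2, 4, 4 and 1 counts in the knockout naive libraries and 15, 9, 23, 19 and 21 in the control naive libraries, or 0.278 ± 0.131 CPM (n = 4) and 1.67 ± 0.432 CPM (n = 5). The knockout libraries thus lay near the single-library limit of 3 counts. After injury it had 0.506, 0.284 and 0.200 CPM in knockout and 3.55, 1.14 and 5.61 CPM in control libraries, with no overlap. That difference was -3.28 log2 (SE 0.56, adjusted p = 0.00759). The call was lost without knockout SNI replicate 19 (adjusted p = 0.0622) or 21 (adjusted p = 0.0623). Slc51b, which codes for the beta subunit that the transporter needs, had 0 to 2 counts per library and did not pass the filter. The far end of Slc51a overlaps Pcyt1a on the opposite strand, which had log2 fold changes of -0.13 (SE 0.09, adjusted p = 0.657) in naive and 0.11 (SE 0.10, adjusted p = 0.525) in injured ganglia.

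Clec18a had 0.813, 0.397, 0.665 and 1.70 CPM in the knockout naive libraries, against 9.95, 6.66, 6.82, 5.28 and 3.79 CPM in the control naive libraries, the wt animal being lowest. After injury it had 1.39, 1.52 and 0.300 CPM in knockout and 6.36, 2.79 and 6.26 CPM in control libraries. The groups did not overlap in either state, but the injured difference of -2.24 log2 (SE 0.52) missed the threshold (adjusted p = 0.0525). It passed without control SNI replicate 15 (adjusted p = 0.0289) or 18 (adjusted p = 0.0225). Without replicate 15, however, 3558 tested genes were called between the injured genotypes, against 177 with all libraries.

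Ceacam10 had 1.42, 3.17, 3.80 and 2.74 CPM in the knockout naive libraries, and 9.06, 11.5, 9.43, 8.47 and 9.23 CPM in the control naive libraries. The knockout mean was 29.2% of the control mean. After injury the knockout libraries were close together (2.15, 2.27 and 1.90 CPM) and the control libraries spread widely (8.03, 4.03 and 20.1 CPM), with the highest value in the shallow replicate 23. The difference was -2.25 log2 (SE 0.46, adjusted p = 0.0318). Its call was lost in 11 of 20 alternatives, with adjusted p up to 0.138 among them. The alternatives that ended it were limma-voom, no filter on low counts, and omission of control naive replicate 1, 3, 6 or 7, knockout naive replicate 5 or 9, or knockout SNI replicate 13, 19 or 21. Without control SNI replicate 23 it was -1.50 log2, and the call remained (adjusted p = 0.0321). Ceacam10 belongs to a large family of similar genes, so reads that match several copies could be shared between them in a way the counts do not show.

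C1ql4 had 2.44, 1.88, 1.81 and 2.61 CPM in the knockout naive libraries and 4.83, 8.27, 7.10, 9.75 and 6.92 CPM in the control naive libraries. After injury it had 1.77, 2.08 and 2.40 CPM in knockout and 8.87, 2.17 and 3.88 CPM in control libraries. The knockout values stayed within the naive knockout range or just under it, and the wt control replicate 18 fell inside the injured knockout range. The injured difference of -1.27 log2 (SE 0.41) was not called (adjusted p = 0.121). It was called without control SNI replicate 18 (-1.67 log2, adjusted p = 0.0243), and without replicate 15 it was -0.43 log2 (adjusted p = 0.411). Without the wt controls it was -2.08 log2 (adjusted p = 0.00510), with replicate 15 as the single injured control.

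Dnah6 had 1.32, 1.59, 0.950 and 0.914 CPM in the knockout naive libraries and 4.63, 3.33, 3.92, 4.19 and 5.35 CPM in the control naive libraries. After injury it had 0.885, 0.379 and 0.60 CPM in knockout and 2.29, 1.03 and 1.73 CPM in control libraries. The genotype groups did not overlap after injury, and the difference of -1.46 log2 (SE 0.40) was not called (adjusted p = 0.0868), except when control SNI replicate 18 was left out (adjusted p = 0.0336). Dnah6 fell with injury in control ganglia, to 1.68 ± 0.632 CPM (n = 3) in SNI against 4.29 ± 0.760 CPM (n = 5) in naive libraries (log2 fold change -1.35, SE 0.28, adjusted p = 0.0141). This call was lost without control SNI replicate 18 (adjusted p = 0.0999) or without the wt controls (log2 fold change -0.79, adjusted p = 0.339). In knockout ganglia the injured mean was 52.1% of the naive mean (-0.98 log2, SE 0.38, adjusted p = 0.112). Both comparisons use naive libraries that chose the gene, so their p-values are not independent of the choice.

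Adgrd1 had the highest counts of the set, and it rose with injury in both genotypes. It had 4.98, 3.67, 4.09 and 4.31 CPM in the knockout naive libraries, against 9.55, 11.5, 10.2, 14.2 and 9.51 CPM in the control naive libraries. After injury it had 20.1, 34.3 and 19.9 CPM in knockout and 27.1, 16.1 and 17.1 CPM in control libraries, and the genotypes overlapped (0.29 log2, SE 0.23, adjusted p = 0.449). In knockout ganglia it averaged 24.8 ± 8.25 CPM (n = 3) after SNI and 4.26 ± 0.549 CPM (n = 4) in naive mice, a rise of 2.54 log2 (SE 0.23, adjusted p = 2.89e-06). In control ganglia it averaged 20.1 ± 6.10 CPM (n = 3) after SNI and 10.99 ± 1.97 CPM (n = 5) in naive mice, a rise of 0.88 log2 (SE 0.21, adjusted p = 0.0317). The control call was lost when control naive replicate 1, 2, 3 or 7 or control SNI replicate 15 was left out, with adjusted p of 0.0543 to 0.0917. The naive libraries of both comparisons chose the gene, for a low level in knockout, so the p-values are not independent of the choice and the sizes of the rises in the genotypes are not compared by a test.

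Macrophage markers were also higher in injured ganglia, where Adgrd1 was higher. The summed level of 9 macrophage markers was 229 to 283 CPM in knockout SNI against 132 to 203 CPM in knockout naive, and 185 to 294 CPM in control SNI against 116 to 140 CPM in control naive libraries. Among the injured controls, replicate 15 had the highest Adgrd1 and the lowest macrophage sum. The sum of 6 adipocyte markers was 5.94, 164 and 5.50 CPM in knockout SNI replicates 13, 19 and 21, against 3.00 to 8.36 CPM in knockout naive libraries. It was 5.95, 30.6 and 20.7 CPM in control SNI replicates 15, 18 and 23, against 3.35 to 23.2 CPM in control naive libraries. Replicate 19 was thus highest in both Adgrd1 and adipocyte markers, while replicates 13 and 21 had high Adgrd1 with adipocyte sums inside the naive knockout range. Muscle markers (8 genes summed) were 171 to 1286 CPM in knockout SNI and 7.82 to 376 CPM in control SNI libraries. None of these lists had a member at 0 in every library. Their part in the levels of the 8 genes was not tested.

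**Figure D2:**
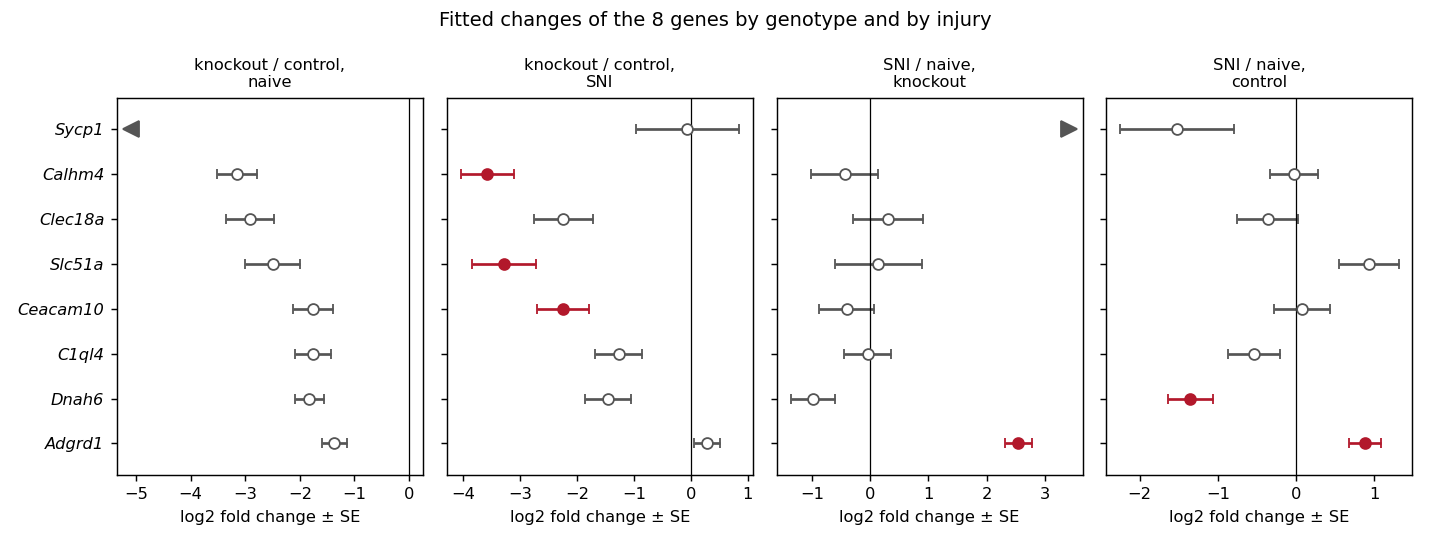
Log2 fold change with its SE for each gene, by genotype in naive and in SNI ganglia (first panels) and by injury in knockout and in control ganglia (last panels), each panel on its own scale. Filled red points passed the adjusted threshold, triangles mark the bound for Sycp1 where the naive knockout libraries had no count, and the naive panel, taken as the difference that chose the genes, carries no test.

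After injury 3 of the 8 genes, Calhm4, Slc51a and Ceacam10, were called lower in knockout ganglia, against 64 genes or 0.377% of those tested. None was called higher. These 3, Clec18a and Dnah6, 5 of the 8, showed every knockout library under every control library, against 8.19% of the tested genes, and the same 5 did so without control SNI replicate 23, against 12.8% of the tested genes in that setting. The log2 fold change was negative for 7 of the 8, and the median was -1.85 against -0.01 over all tested genes. The genes were picked with earlier results of these data known. Whether injured libraries entered that choice is not known, so the counts are not taken as independent evidence. Sycp1, Calhm4, Slc51a and Dnah6 also passed the filter on low counts only through control libraries, because too few of their knockout libraries reached its level. Their comparison with the share of all tested genes is limited by this as well. The number called lower ranged from 1 without knockout SNI replicate 19 or 21 to 6 without control SNI replicate 18, and was 3 without replicate 23. Calls over all tested genes, in either direction, moved as well. They were 177 with all libraries and 3558 without control SNI replicate 15, where 4 of the 8 were called lower. The numbers by omission are therefore not read as a result about the 8. Calhm4 was called under every omission of a library. Control SNI replicate 18 had the lowest level of the 3 injured controls for all 8 genes, against 23.2% of the tested genes.

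**Figure D3:**
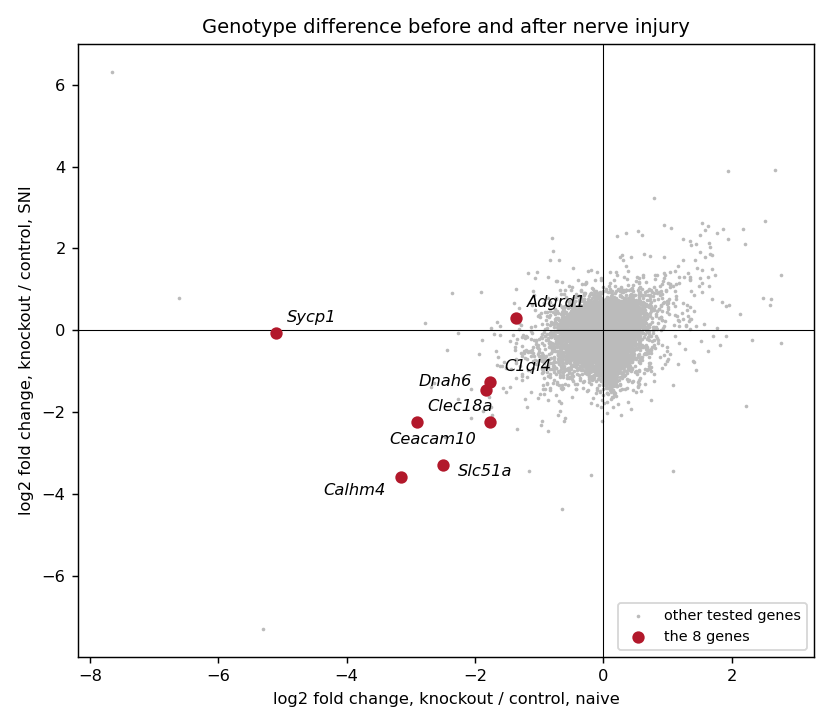
Log2 fold change between knockout and control ganglia in naive mice (x axis) and after SNI (y axis), with the 8 genes in red and all other tested genes in grey; Sycp1 is drawn at its bound. Calhm4, Slc51a, Clec18a and Ceacam10 lie low on both axes, while Sycp1 and Adgrd1 lie near 0 on the injured axis.

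Between SNI and naive ganglia 2 of the 8 genes differed by the test. In control ganglia 421 genes (2.48%) were called, with Dnah6 lower and Adgrd1 higher. In knockout ganglia 1717 genes (10.1%) were called, and Adgrd1 was the only one of the 8. Both injury comparisons share their naive libraries with the difference that chose the genes. For the other 5 genes (Calhm4, Clec18a, Slc51a, Ceacam10 and C1ql4) the log2 fold changes with injury lay between -0.54 and 0.93 in control and between -0.44 and 0.31 in knockout ganglia, with none called. Slc51a was called higher in control SNI without control SNI replicate 18 (adjusted p = 0.0308), and C1ql4 lower without replicate 15 (adjusted p = 0.0126). For the difference between the injury effects, edgeR's quasi-likelihood test called 0 of 16976 genes (0%), 2281 had an unadjusted p under 0.05, and DESeq2 called 13. That difference contains the naive contrast that chose the genes, so no test of it is given for the 8.

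Over naive and injured mice together, 4 of the 8 genes (Calhm4, Slc51a, Clec18a and Ceacam10) had all 7 knockout libraries under all 8 control libraries, as had 75 or 0.442% of the tested genes. The naive part of this count chose the genes. Of the 75 separated genes, 64 averaged 1 CPM or more in control libraries and carry an established name. These 64 were ranked by the smaller of their naive and injured falls, that is, the log2 fold change nearer to no difference. Calhm4, Slc51a, Clec18a and Ceacam10 had the largest falls, a place that their choice for large falls favoured. The next was Chst9, a sulfotransferase, with 1.24 CPM in knockout naive and 2.92 CPM in control naive libraries on average, and 0.902 CPM in knockout SNI and 3.11 CPM in control SNI libraries. Slc38a11, Il31ra, Pln, Ap1s3, Chrnb3, Nppb, Esrrb, Rassf9 and Cd34 followed in this order. Il31ra, the interleukin-31 receptor subunit of itch neurons, averaged 6.96 CPM in knockout naive and 31.6 CPM in control naive libraries, and 14.2 CPM in knockout SNI and 32.0 CPM in control SNI libraries. Nppb, the natriuretic peptide of the same neurons, averaged 7.11 CPM in knockout naive and 13.7 CPM in control naive libraries. Pln, the phospholamban that restrains the calcium pump, averaged 1.83 CPM in knockout naive and 3.99 CPM in control naive libraries, and Chrnb3, a nicotinic receptor subunit, averaged 6.13 CPM in knockout naive and 12.1 CPM in control naive libraries. The falls of these 10 genes, at -0.83 to -2.19 log2 in naive ganglia, were smaller than those of Calhm4, Clec18a and Slc51a, which were chosen for large falls.

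Genes of the same families and processes were set beside the 8 from lists that hold 120 other tested genes, with a median log2 fold change of -0.02 in naive and 0.02 in injured ganglia. Of these 120 genes, 3 were called lower and 1 higher in naive knockout ganglia, and none lower and 1 higher after injury. No gene of the meiosis list (13 tested besides Sycp1) was called in either state. Their naive log2 fold changes ran from -1.91 (Rec8) to 0.20 (Sycp2), with a median of -0.21. After injury they ran from -2.45 (Mei1) to 0.94 (Rec8), with a median of -0.02. Sycp3, the lateral element protein of the synaptonemal complex, averaged 5.46 CPM in knockout naive and 6.81 CPM in control naive libraries (log2 fold change -0.33, SE 0.22, adjusted p = 0.663). Among 35 other genes of axonemal dyneins and motile cilia the median was -0.09 in naive and 0.02 in injured ganglia, and the only call was a rise of Tekt2, a tektin of ciliary microtubules, with 5.99 ± 4.13 CPM (n = 4) in knockout naive and 1.57 ± 0.188 CPM (n = 5) in control naive libraries (log2 fold change 1.94, SE 0.37, adjusted p = 0.0104). Tekt2 was also higher in knockout than in control ganglia after injury (2.23 log2, SE 0.45, adjusted p = 0.0290). Of the 2 other CALHM genes tested, Calhm5, which neighbours Calhm4, differed by -0.01 log2 (SE 0.20, adjusted p = 0.996) in naive ganglia.

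In the list of bile acid and organic solute carriers (16 tested besides Slc51a) the efflux pump Abcc4 was lower in naive knockout ganglia (16.2 CPM in knockout and 22.2 CPM in control libraries, -0.45 log2, SE 0.11, adjusted p = 0.0385). Among 20 other adhesion receptors, Adgrg2 (-0.42 log2, SE 0.09, adjusted p = 0.0203) and Adgra3 (-0.41 log2, SE 0.10, adjusted p = 0.0480) were lower in naive knockout ganglia and none was called after injury. Adgrb3, the receptor that C1q-like proteins bind, averaged 24.9 CPM in knockout naive and 27.7 CPM in control naive libraries (-0.15 log2, SE 0.10, adjusted p = 0.641). No other C1q-like or cerebellin gene (13 tested in that list, Adgrb3 included), C-type lectin gene (19 tested) or CEACAM or PSG gene (3 tested) was called in either state. Of 10 germ-cell markers, Sycp3, Ddx4 (168 counts in all) and Dazl (69 counts) were counted in all 15 libraries, with Ddx4 at up to 2.40 CPM. Tdrd1 was counted in 13 libraries, Prm1 in 11 and Mael in 7, and Prm2, Tnp1, Tnp2 and Acrv1 had 1 count each over all 15. The summed level of the 10 markers was 6.35 to 7.62 CPM in knockout naive and 5.86 to 11.2 CPM in control naive libraries. Of 8 markers of multiciliated cells the sum was 47.6 to 52.5 CPM in knockout naive and 45.2 to 51.8 CPM in control naive libraries. Ccdc39 (3514 counts over all 15 libraries) and Foxj1 (1946 counts) were the largest parts of it. Dynlrb2 (24 counts), Tekt1 (18 counts) and Tmem212 (6 counts) were near 0, so the sum does not show that such cells were present.

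**Figure D4:**
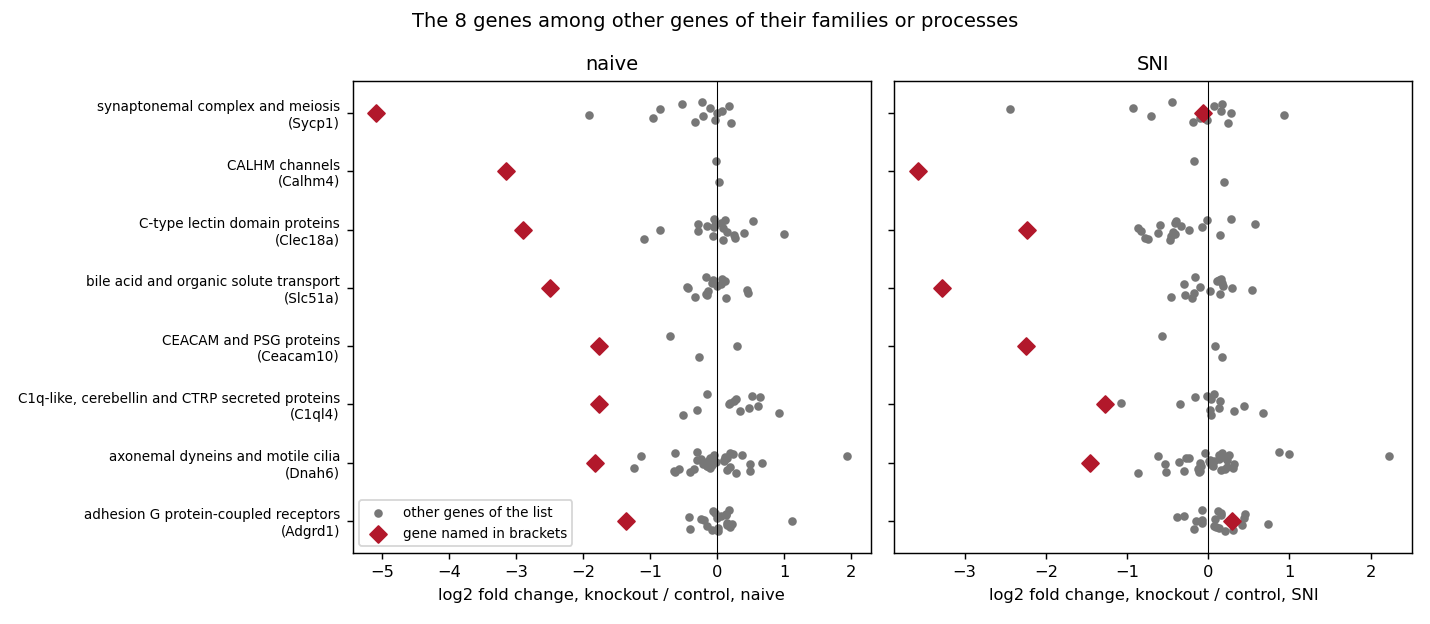
Log2 fold change between knockout and control in naive (left) and SNI ganglia (right) for each of the 8 genes (red diamonds; Sycp1 at its bound in naive) and for other tested genes of its list (grey). In naive ganglia each of the 8 lies left of every other tested gene of its list, a place that the choice for large falls favoured. After SNI Sycp1 and Adgrd1 lie among the other genes of their lists.

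Markers of some sensory neuron classes differed between the naive genotypes as well, where 1.89% of all tested genes were called. The sum of 4 markers of Mrgpra3 itch neurons was 123 to 192 CPM in knockout naive and 58.6 to 75.5 CPM in control naive libraries. It overlapped after injury, with 71.6 to 141 CPM in knockout SNI and 53.9 to 85.7 CPM in control SNI libraries. The sum of 9 markers of non-peptidergic nociceptors was 1078 to 1306 CPM in knockout naive and 1297 to 2007 CPM in control naive libraries, with P2rx3, Mrgprd, Lpar3 and Lpar5 called lower and an overlap between the groups. The sum of 10 markers of somatostatin and natriuretic peptide itch neurons was 554 to 586 CPM in knockout naive and 609 to 690 CPM in control naive libraries, with Il31ra, Htr1a and Ptprk called lower and a median log2 fold change of -0.72. After injury their median was -1.08, with Il31ra and Nts called lower. The sum of 7 markers of C low-threshold mechanoreceptors was 688 to 782 CPM in knockout naive and 820 to 1045 CPM in control naive libraries, with none called. Peptidergic nociceptor markers (7 genes) had 1905 to 2309 CPM in knockout naive and 1832 to 2223 CPM in control naive libraries, with none called. A-fibre mechanoreceptor and proprioceptor markers (12 genes) had 1378 to 1517 and 1343 to 1689 CPM in these groups, with Ntrk3 and Calb2 (-1.73 log2) called. Cold neuron markers (4 genes) had 71.45 to 99.0 and 97.4 to 111 CPM, with Cdh8 called. Between the injured genotypes 1.04% of all tested genes were called. Among them were Mrgprx1 of the Mrgpra3 itch neurons, Calcb of the peptidergic nociceptors and Slc17a8 (-1.21 log2) of the C low-threshold mechanoreceptors. Calb2 (-2.06 log2) and Cdh8 were called there as well. The part of these classes in the levels of the 8 genes was not tested.

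Genes around the 8 were called about as often as all tested genes. Within 500 kb on either side of the 8 genes lay 140 tested genes, of which 2 (1.43%) were called in naive ganglia (Trappc3l, lower, and Clvs2, 1.00 log2 higher, both near Calhm4) and 1 (0.714%) after injury (Tmbim6, 0.52 log2 higher, near C1ql4), against 1.89% and 1.04% of all tested genes. Aars and Pdpr, 1255 and 2203 bases from the ends of Clec18a, had naive log2 fold changes of 0.06 (SE 0.09, adjusted p = 0.899) and 0.00 (SE 0.11, adjusted p = 0.998). Dnajc22, 5352 bases from C1ql4, had -0.74 (SE 0.38, adjusted p = 0.50). The flanking tested genes of the others were Tspan2 and Sike1 (Sycp1), Rwdd1 and Calhm5 (Calhm4), Tctex1d2 and Tfrc (Slc51a), Cd177 and Rps19 (Ceacam10), Prph on the other side of C1ql4, Tmsb10 and Suclg1 (Dnah6), and Ran and Sfswap (Adgrd1). Their naive log2 fold changes lay between -0.18 (Tspan2) and 0.60 (Tmsb10), with none called.

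**Figure D5:**
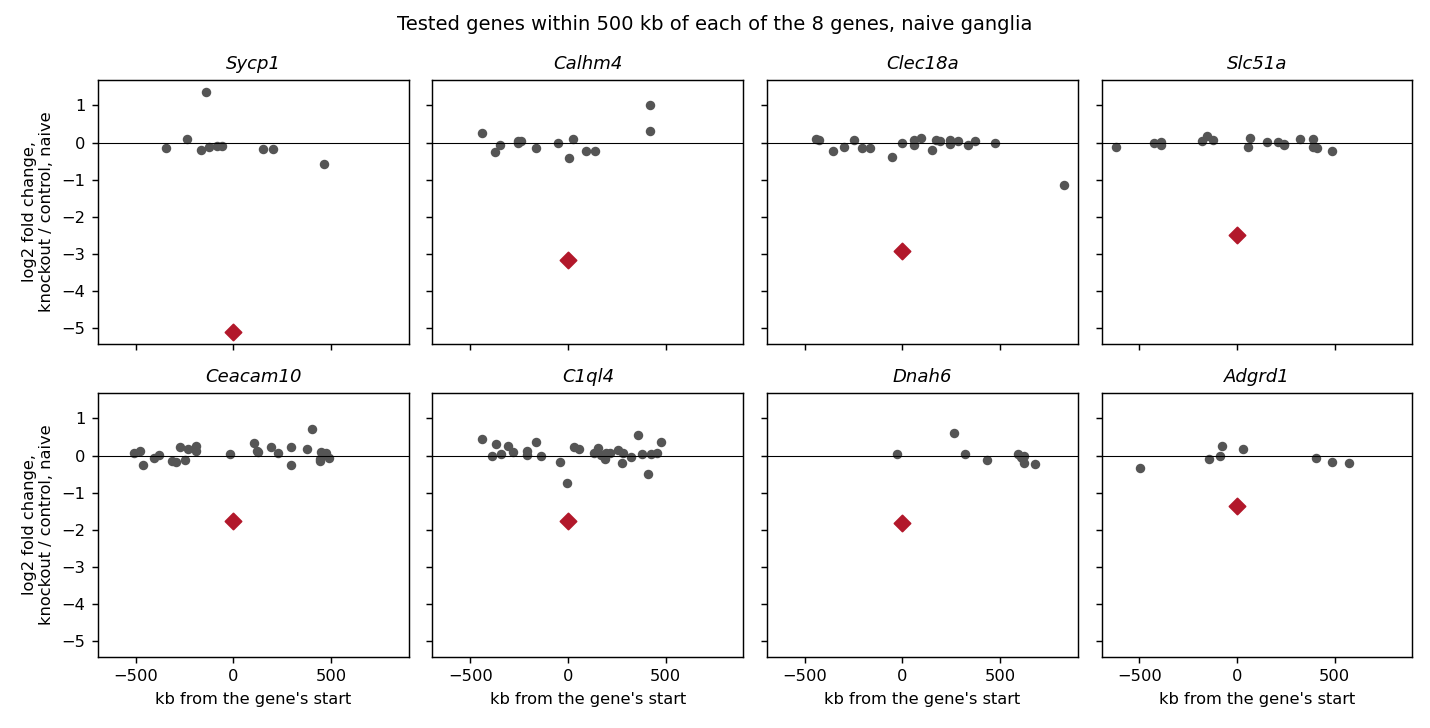
Naive log2 fold change between knockout and control of every tested gene that reaches within 500 kb of each of the 8 genes (grey), against the distance between start sites in kb; the gene itself is the red diamond at 0, Sycp1 at its bound. Neighbours lie between -1.13 and 1.37 log2, above the fall of the gene they surround in all 8 panels, which the choice of the 8 for large falls favoured.

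Per kilobase of exon, the control naive levels ranged from 0.324 CPM for Dnah6 and 0.521 CPM for Slc51a over 0.756 CPM for Sycp1, 1.32 CPM for Adgrd1, 1.33 CPM for Calhm4 and 1.78 CPM for Clec18a to 5.00 CPM for C1ql4 and 6.37 CPM for Ceacam10. All 8 were thus low in whole ganglia. Among the 5 naive controls the SD was 12.03% (Ceacam10) to 35.1% (Clec18a) of the mean, and it was 30.4% (Adgrd1) to 94.0% (Sycp1) among the 3 injured controls. The wt naive control (replicate 7) was the highest of the 5 for Sycp1 and Dnah6 and the lowest for Clec18a and Adgrd1, and lay above every knockout naive library for all 8.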

How the data were processed

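Whole-number read counts per gene were deposited by the authors for 39179 mouse gene identifiers in 15 libraries, not normalized. Per the submitters' processing notes, TopHat2 2.0.4, SAMtools, Cufflinks, HTSeq 0.6.1 and DESeq2 were used with the build GRCm38, and per the labels' protocols Trizol RNA went into a stranded mRNA kit. The annotation release, the strand setting, the treatment of multiply matching reads and the time after injury were not given in the sources used here.

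Symbols, coordinates and 3′ UTRs came from GENCODE M21. Of 27310 genes with a count, 16976 passed the filterByExpr filter of edgeR by group (minimum count 10); the others held 0.131% of the counts. One model of 4 group means (11 residual degrees of freedom) was fitted to all libraries with edgeR 4.0.16 (TMM, robust quasi-likelihood F test, two-sided), and a call is an adjusted p under 0.05 (Benjamini-Hochberg, over all 16976 genes). SEs are the absolute log2 fold change over the root of F. Levels are CPM on TMM-scaled library sizes. Floors and bounds use 3 counts, per library or over a group as stated, and cover counting error only. Alternatives used DESeq2 1.42.0, limma-voom (limma 3.58.1), RLE factors, no filter, raw library sizes, no wt controls and omission of each library, in R 4.3.3 and Python 3.11.15. The fit was also run on simulated counts with known changes. These were placed only in naive knockout libraries and in genes averaging over 1 CPM, so recovery of injured differences was not checked. Replicates are separate animals per the labels.

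The 8 genes, the lists and the tests were chosen with earlier results of these data known. Named genes are the 8, their nearest tested neighbours, up to 4 called genes of each list, and up to 10 other genes in which every control library exceeded every knockout library, with a mean of at least 1 CPM in controls, no predicted or clone name and no sex linkage, ranked by the smaller of the naive and injured falls. Sycp3, Calhm5, Adgrb3, Slc51b, the genes that overlap the 8, and marker genes were named after their values were seen.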

Additional observations from a re-analysis of the deposited data

How the results depend on the processing

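The naive falls of the 8 genes kept their direction in all 20 alternatives. Numbers of called genes moved widely. Knockout against control in naive ganglia gave 515 calls with DESeq2, 709 without the wt controls and 151 to 708 with 1 library left out, against 321. After SNI it gave 955 with DESeq2, 74 without the wt controls and 57 to 3558 with 1 library left out (the most without control SNI replicate 15), against 177. SNI against naive gave 673 with DESeq2, 259 without the wt controls and 283 to 1506 with 1 library left out in control (421), and 4745 without the wt controls and 587 to 4409 with 1 library left out in knockout (1717). The difference between the injury effects gave 13 with DESeq2, 1 with no filter, 1 without the wt controls and 0 to 1235 with 1 library left out. Fits without the wt controls assume that the single injured control varies like the other groups.

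Small changes that were not called turned sign under some alternatives, and the cause was not tested. With DESeq2, Calhm4 changed by 0.029 log2 with injury in control. With limma-voom, Sycp1 was 0.25 log2 higher in knockout SNI and Ceacam10 changed by -0.31 with injury in control. Without the wt controls, Adgrd1 differed by -0.13 between injured genotypes, and Ceacam10 and C1ql4 changed by -0.24 and 0.26 with injury in control. With 1 library left out, the injured genotype difference ran from -1.06 to 1.23 for Sycp1 and from -0.017 to 0.59 for Adgrd1. The injury change in control ran from -0.46 to 0.34 for Calhm4 and -0.65 to 0.50 for Ceacam10, and in knockout from -0.10 to 0.77 for Clec18a, -0.23 to 0.40 for Slc51a and -0.16 to 0.056 for C1ql4. DESeq2 gave no adjusted p for 6 of the 8 genes in injured knockout against control. No paired analysis was possible because the groups share no replicate number. Knockout levels of Slc51a, at 1 to 4 counts a library, are limited by depth.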
